A study of Mus musculus with 6 samples.

Results

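The 26S proteasome genes of C2C12 myotubes were examined with and without exposure to TWEAK. The deposited expression table lists 49592 genes, and 47 protein-coding genes in it have a symbol of the form Psma, Psmb, Psmc, Psmd, Psme or Psmf followed by a number. All 47 were kept, including 2 that match by name alone and encode no proteasome subunit, Psmc3ip and Psme3ip1. C2C12 is a clonal mouse myoblast line, and here it was grown in 10% FBS and then kept for 3 days in 2% HS, a low-serum medium in which it forms myotubes. TWEAK, a cytokine of the TNF superfamily that can activate classical and alternative NF-kB signalling, was then given at 10 ng/ml for 12 h, which gave 3 libraries, and 3 libraries came from untreated myotubes. Both groups share the same differentiation, with no genetic change in the labels, and the libraries were made from poly(A)-selected mRNA. The labels number the libraries of each group as trials 1 to 3. They do not say how the trials were set up, and p-values therefore reflect library-to-library spread, which may be technical.

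The proteasome degrades proteins tagged with ubiquitin. Its 20S core is a barrel of outer alpha rings and inner beta rings, and only the beta subunits Psmb5, Psmb6 and Psmb7 cut peptide bonds. A 19S particle caps the core: its base holds a ring of ATPases (Psmc genes) that unfold substrates, and its lid removes ubiquitin. Interferon signalling replaces the catalytic beta subunits by the immune forms Psmb8 (for Psmb5), Psmb9 (for Psmb6) and Psmb10 (for Psmb7), and raises Psme1 and Psme2, which form the ring-shaped PA28 activator. This immunoproteasome favours peptides that fit MHC class I molecules. In muscle, proteasomes are best known for the breakdown of contractile proteins during atrophy, and cytokine-driven inflammation can bring in the immune forms.

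The libraries held 29953554 to 40889763 reads, recovered from the deposited FPKM values (fragments per kilobase of gene, scaled for sequencing depth). Differences were tested with limma on log2(FPKM + 1) over the 12770 genes with a mean of at least 0.5 FPKM, with Benjamini-Hochberg adjustment over all of them at 0.05, and every log2 fold change below is TWEAK minus untreated on that scale. Of the 10 myotube markers, all 10 were tested, 4 fell (Myh3, Myh8, Actn2 and Ttn) and 0 rose. Across all tested genes, 6.1% fell and 8.98% rose. The log2 fold change was below 0 in 7 of the 10 and above 0 in 3. In the authors' deposited table it was above 0 for Myog, Mymk and Des (0.23, 0.16 and 0.20). The summed level of the 10 markers was 8834 to 9886 FPKM with TWEAK and 9700 to 10787 FPKM without. In bulk RNA, fewer cells of a type and less RNA per cell cannot be told apart. Leukocytes and endothelial cells carry immune subunits at rest. Of the 10 leukocyte markers, 5 were at 0 in all 6 libraries, Adgre1, Cd3e, Flt3 and Itgax among them. Their summed level was 1.51 to 1.80 FPKM with TWEAK and 1.66 to 1.77 FPKM without, most of it Cd68. The 5 endothelial markers summed to at most 0.0796 FPKM with TWEAK and 0.104 FPKM without, and Tie1 was at 0 throughout. These levels stand beside the immune genes described below, and their part in those results was not tested.

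After 12 h of TWEAK, 7 of the 43 tested members rose and 0 fell. Across all tested genes, 8.98% rose and 6.1% fell. The 7 were Psmb10, Psme1, Psme2, the Psme2-like gene Psme2b, the assembly chaperone Psmd10, and the alpha-ring subunits Psma7 and Psma4. At an unadjusted p under 0.05 limma called 23 members higher and 0 lower, against 17% and 13.3% of all genes, and limma-voom on the recovered reads called 8 higher and 0 lower, against 9.58% and 7.11%. In the authors' deposited table, 19 members were higher and 0 lower at an adjusted p under 0.05, beside 12.7% of tested genes higher. Over all tested genes that table called 1613 higher and 1317 lower. With the trial number as a block in limma, 13 members rose, beside 15.4% of all genes. The other 4 members were below the expression minimum: Psmb8, Psmb9, the thymus subunit Psmb11 and the testis subunit Psma8.

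**Figure D1:**
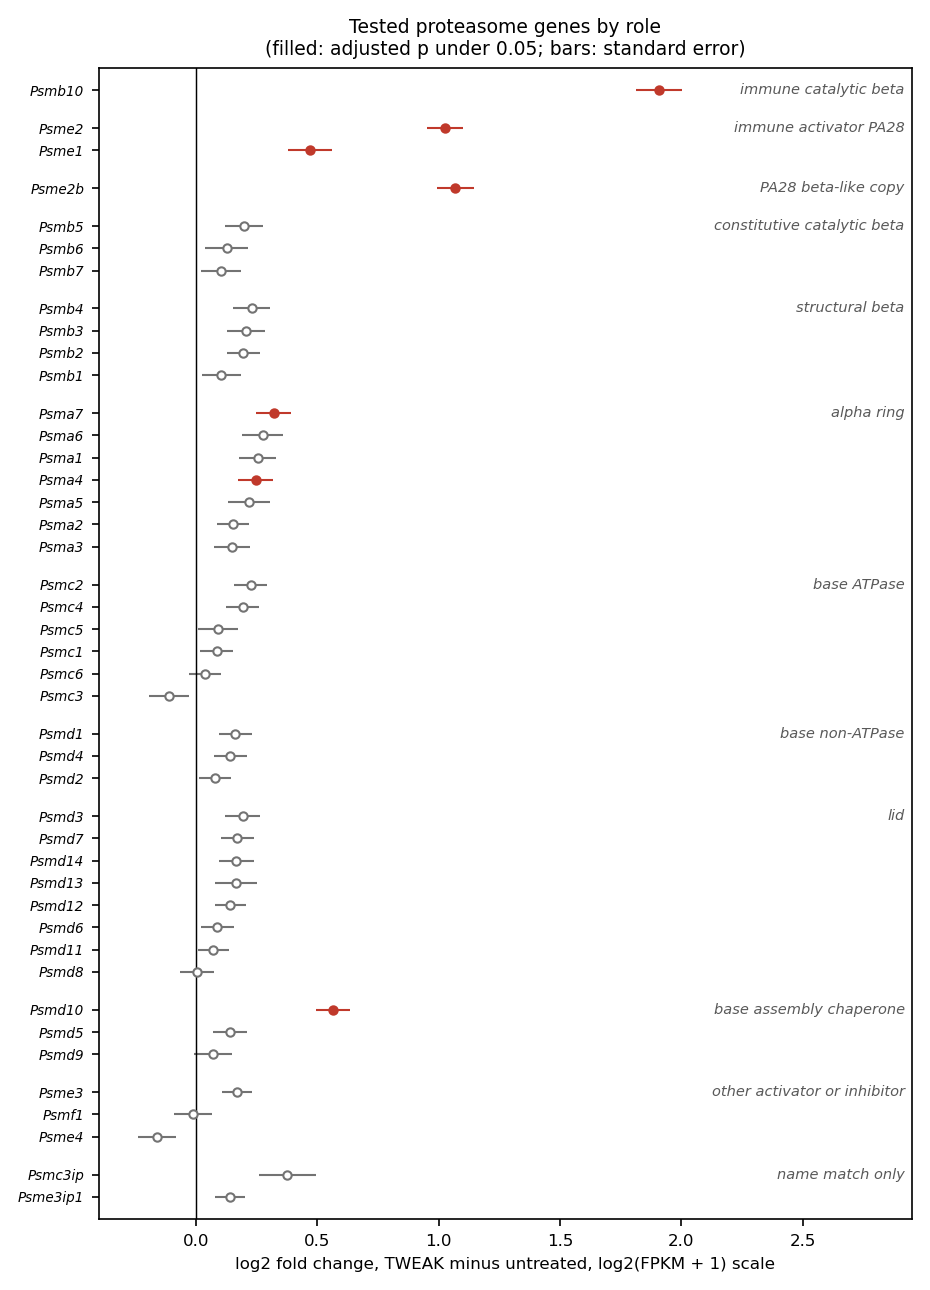
Log2 fold change (TWEAK minus untreated, log2(FPKM + 1) scale) of the 43 tested proteasome genes, grouped by role, with standard errors from limma and filled points for adjusted p under 0.05. Psmb10, Psme2 and Psme2b lie at 1.91, 1.03 and 1.07, while the constitutive core, ATPase and lid genes lie between -0.11 and 0.32.

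Promoters of the immune genes that the results turn on are shown first, taken from RefSeq on build GRCm38.p6, from 250 bases before the start of transcription to 30 bases from it. Capitals mark matches, on either strand, to the NF-kB consensus by name, to the interferon-stimulated element (2 GAAA blocks with any 2 bases between them) or to the interferon-gamma element TTCNNNGAA.
Psmb10 promoter, chr8:105938363-105938642, minus strand: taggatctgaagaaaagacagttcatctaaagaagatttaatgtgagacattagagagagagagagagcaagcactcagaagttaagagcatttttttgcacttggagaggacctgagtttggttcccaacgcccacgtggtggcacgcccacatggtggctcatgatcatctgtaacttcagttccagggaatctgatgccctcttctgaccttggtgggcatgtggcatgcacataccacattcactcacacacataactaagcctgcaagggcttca
Psme1 promoter, chr14:55578244-55578523, plus strand: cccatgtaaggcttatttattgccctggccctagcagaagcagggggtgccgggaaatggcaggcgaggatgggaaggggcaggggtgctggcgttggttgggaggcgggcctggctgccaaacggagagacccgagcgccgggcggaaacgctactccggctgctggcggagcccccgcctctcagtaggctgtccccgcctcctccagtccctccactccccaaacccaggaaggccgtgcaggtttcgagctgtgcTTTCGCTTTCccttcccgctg
Psme2 promoter, chr14:55591072-55591351, minus strand: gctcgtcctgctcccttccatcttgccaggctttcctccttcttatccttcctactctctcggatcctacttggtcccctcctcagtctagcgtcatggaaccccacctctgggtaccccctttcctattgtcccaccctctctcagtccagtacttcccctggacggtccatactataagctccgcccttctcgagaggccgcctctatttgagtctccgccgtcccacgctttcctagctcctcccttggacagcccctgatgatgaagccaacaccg
Psmb8 promoter, chr17:34197945-34198224, plus strand: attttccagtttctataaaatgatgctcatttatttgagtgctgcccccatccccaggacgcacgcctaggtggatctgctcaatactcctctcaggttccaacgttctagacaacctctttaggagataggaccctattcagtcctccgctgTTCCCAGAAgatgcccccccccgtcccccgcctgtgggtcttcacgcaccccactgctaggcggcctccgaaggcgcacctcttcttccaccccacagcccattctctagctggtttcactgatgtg
Psme1 held an interferon-stimulated match, TTTCGCTTTC on the minus strand, from 9 to 18 bases past its start. Psmb8 held an interferon-gamma match, TTCCCAGAA, from 97 to 89 bases before its start. The windows of Psmb10, Psme2 and Psmb9 held none of these 3 motifs within the full 300 bases, which says only that these letters are not in those windows. Windows were found for 40 of the 47 members, 44 in all. The NF-kB consensus was in 6 of the 44 windows (13.6%) and in 8.46% of 32851 promoter windows of the mouse genome. The 6 were those of Psma6, Psma7, Psmd11, Psmd12, Psmd13 and Psme4, none of them an immune gene. The interferon-stimulated element was in 4 of 44 (9.09%) against 3.44%, in Psme1 and in the non-immune members Psmb3, Psmd4 and Psmd9. TTCNNNGAA was in 2 of 44 (4.55%) against 8.30%, in Psmb8 and in the non-immune member Psmd2. A match is a description of the letters, not evidence of binding, and matches of different motifs were counted separately even where they overlap.

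Psmb10, the immune replacement for Psmb7, had the largest fold among the tested members. Its levels were 27.7, 34.0 and 33.7 FPKM in TWEAK replicates 1, 2 and 3 and 7.77, 8.33 and 7.04 FPKM in the untreated replicates. The groups were far apart, with the lowest TWEAK library over 3 times the highest untreated one. The mean rose 4.12-fold, with a log2 fold change of 1.91 ± 0.09 (SE, n = 3 per group; limma adjusted p = 1.05e-05). The gene (ENSMUSG00000031897.10) lies at chr8:106662367-106665076 on GRCm39. Its reads, 3969 with TWEAK and 1070 without, make counting error small. Psmb10 overlaps 1 other listed gene, Gm16156. The use of strand in counting is not given, so reads in a stretch shared with it cannot be assigned.

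Psmb8, the immune replacement for Psmb5, stayed close to the floor of detection. The recovered reads were 4, 3 and 9 with TWEAK and 0, 0 and 1 without. In FPKM this was 0.0690, 0.0452 and 0.158 against 0, 0 and 0.0129. Every TWEAK library was above every untreated one, but on few reads. The pooled ratio of reads, scaled for library size, was 17.9 with a 95% exact binomial interval of 2.79 to 752, which covers counting error only. At 1 untreated read the size of this ratio is barely bounded. Psmb8 also overlaps 1 other listed gene, Gm20496. The use of strand in counting is not given, so reads in a stretch shared with it cannot be assigned.

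Psmb9, the immune replacement for Psmb6, was as scarce. It had 4, 2 and 2 reads with TWEAK and 0, 2 and 0 without, or 0.0456, 0.0199 and 0.0233 FPKM against 0, 0.0211 and 0. The groups overlapped, and the pooled ratio of 4.48 had an interval of 0.895 to 43.4, so a difference was not detectable at this depth. Psmb9 and Tap1 overlap by 212 bases, and the use of strand in counting is not given in the sources used here, so reads in the shared stretch cannot be assigned.

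Psmb8 and Psmb9 sit in the MHC region of chromosome 17 with the peptide transporter genes Tap1 and Tap2, in the order Psmb9 (ENSMUSG00000096727.4, chr17:34400961-34406738), Tap1, Psmb8 (ENSMUSG00000024338.16, chr17:34416695-34420428) and Tap2. Tap1 ends 495 bases before Psmb8 begins, and Tap2 begins 2072 bases after Psmb8 ends. Tap1 stood at 0.849, 1.10 and 0.832 FPKM with TWEAK and 0.417, 0.420 and 0.435 FPKM without, a 2.19-fold rise (limma adjusted p = 0.0133). Tap2 stood at 4.71, 4.39 and 5.76 FPKM against 2.30, 2.32 and 2.68 FPKM, a 2.03-fold rise (limma adjusted p = 0.00143). Tap1 passed in 5 of the 6 fits that left out a library. In all 6 libraries both transporters were above both immune beta genes.

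**Figure D2:**
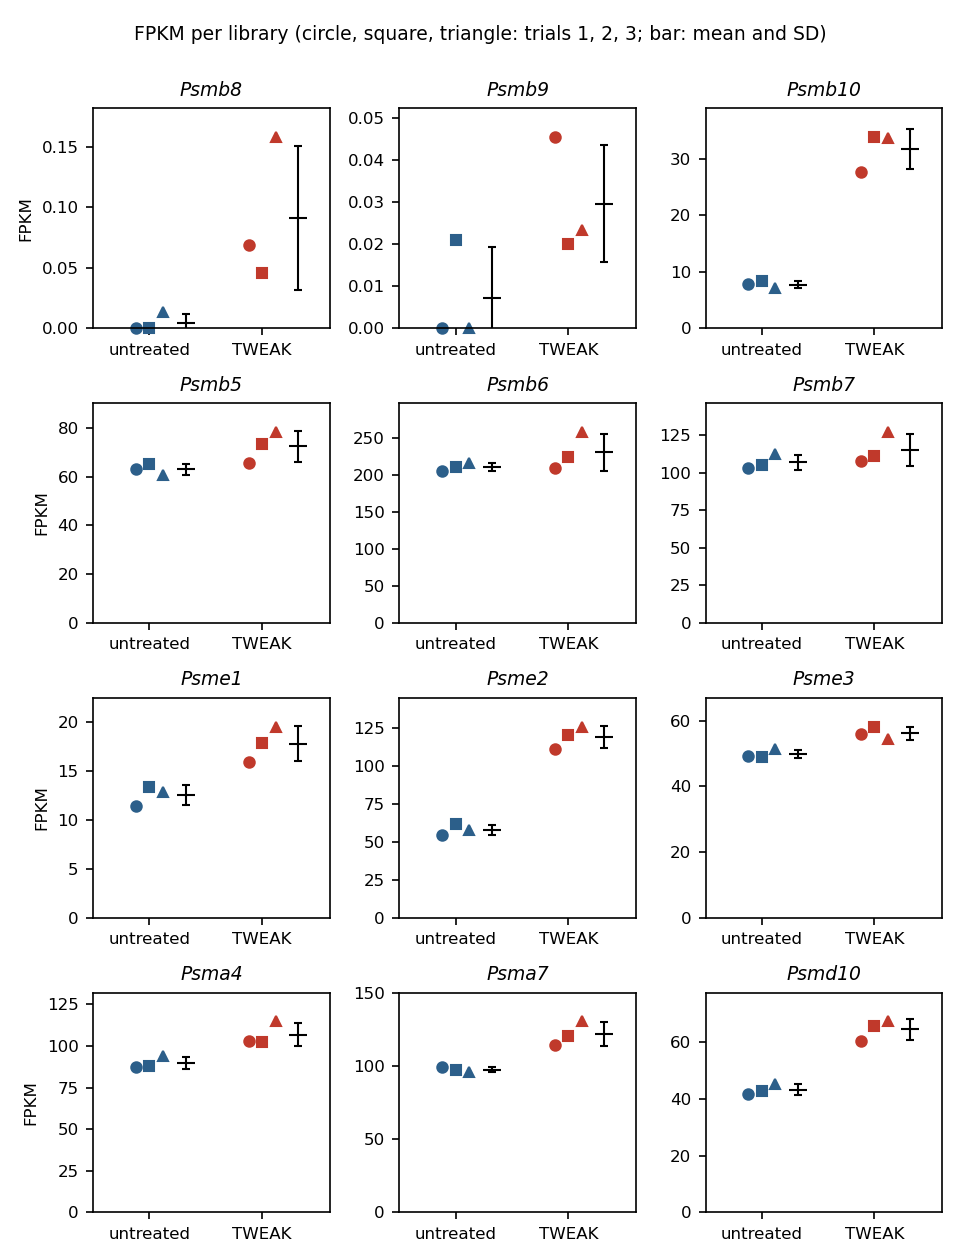
FPKM of 12 proteasome genes in each library, with trials 1, 2 and 3 as circle, square and triangle and the mean and SD of the 3 libraries as a bar; the vertical scale differs between panels and starts at 0. Psmb10 and Psme2 separate the groups widely, Psmb8 and Psmb9 remain below 0.16 FPKM, and Psmb5, Psmb6 and Psmb7 shift little.

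The PA28 genes, which encode the activator that opens the core without ATP, both rose. Psme2, the beta subunit, was at 111, 120 and 126 FPKM with TWEAK and 54.9, 61.5 and 57.7 FPKM without. The mean rose 2.06-fold (log2 fold change 1.03 ± 0.07, SE, n = 3; limma adjusted p = 6.25e-05). Psme1, the alpha subunit, was at 16.0, 17.9 and 19.6 FPKM with TWEAK and 11.4, 13.4 and 12.9 FPKM without. It rose 1.42-fold (log2 fold change 0.47 ± 0.09, SE, n = 3; limma adjusted p = 0.00919). With no minimum on FPKM, so that 26302 genes were tested, its limma adjusted p was 0.0521. Neither gene's groups overlapped. The genes lie 5911 bases apart on chromosome 14, Psme1 (ENSMUSG00000022216.18) at chr14:55815580-55818986 and Psme2 (ENSMUSG00000079197.11) at chr14:55824898-55828570. Psme1 overlaps 1 other listed gene, Emc9, and reads in a stretch shared with it cannot be assigned. Psme1 made up 13.0% ± 0.445 (SD, n = 3) of the summed Psme1 and Psme2 FPKM with TWEAK and 17.8% ± 0.538 without. With each gene's longest coding transcript as its length, an alternative chosen after seeing the data, the shares were 21.02% and 27.9%.

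Psme2b, a near-identical copy of Psme2 on chromosome 11 (chr11:48836181-48837017), followed its parent. It was at 18.7, 21.3 and 20.2 FPKM with TWEAK and 8.96, 9.67 and 8.49 FPKM without, a 2.22-fold rise (limma adjusted p = 5.91e-05). The open reading frames of both transcripts in GENCODE M21 are 720 bases long and differ at 5 positions, which makes them 99.3% identical. The stretch from base 484 to base 543 of the frame holds 3 of the 5 differences and is shown for both, with the differing bases in capitals.
Psme2: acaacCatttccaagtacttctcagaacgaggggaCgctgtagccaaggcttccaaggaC
Psme2b: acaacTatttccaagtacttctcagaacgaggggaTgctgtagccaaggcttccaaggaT
Of the 75-base windows of the Psme2 transcript, 51.7% also occur in Psme2b, and these are 60.2% of the windows of Psme2b. Reads from such windows fit either gene, so the values of Psme2b, and how far they are its own, are uncertain. The level of Psme2 carries the same limit. So do the Psme1 share given above and the ratio of Psme2 to Psme3 given below.

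Psme3, which forms the nuclear PA28 ring and served as the constitutive counterpart of Psme1 and Psme2, was at 55.8, 58.2 and 54.3 FPKM with TWEAK and 49.3, 49.0 and 51.3 FPKM without. These groups did not overlap, yet the 1.13-fold difference did not pass (limma adjusted p = 0.103). Psme2 stood at 213% ± 17.2 of the Psme3 level with TWEAK and 116% ± 7.85 without (SD, n = 3). Psme1 stood at 31.8% ± 3.84 with TWEAK and 25.2% ± 2.06 without. The ratio to Psme3 rose 1.83-fold for Psme2 and 1.26-fold for Psme1. In both, each TWEAK library was above each untreated one, which gives p = 0.1 in an exact two-sided permutation test, the smallest that 3 against 3 libraries allow.

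The constitutive catalytic subunits shifted little. Psmb5, with chymotrypsin-like activity, was at 65.8, 73.3 and 78.5 FPKM with TWEAK and 63.2, 65.0 and 60.7 FPKM without (log2 fold change 0.20, limma adjusted p = 0.123). Of the 75-base windows of its transcript, 40.0% also occur in other genes, which limits its level and the shares below that use it. Psmb6, with caspase-like activity, was at 210, 225 and 259 FPKM against 206, 211 and 217 FPKM (log2 fold change 0.13, limma adjusted p = 0.371). Psmb7, with trypsin-like activity, was at 108, 111 and 127 FPKM against 103, 105 and 112 FPKM (log2 fold change 0.10, limma adjusted p = 0.433). Each was higher with TWEAK in all 3 trials, which held for 31% of all tested genes, and the groups of Psmb6 and Psmb7 overlapped. The Psmb7 gene overlaps 2 other listed genes, Gm13586 and Nek6, and reads in a stretch shared with them cannot be assigned.

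Set against Psmb7, Psmb10 was at 25.8%, 30.7% and 26.5% of its level with TWEAK and 7.53%, 7.92% and 6.25% without. The ratio rose 3.83-fold on average. The exact two-sided permutation test gave p = 0.1, and 0.1 after Benjamini-Hochberg adjustment over the 3 pairs that could be tested. These percentages, but not the fold, depend on the gene lengths used. Psmb10 made up 21.6% of summed Psmb7 and Psmb10 FPKM with TWEAK and 6.74% without. With each gene's longest coding transcript as its length, these shares were 10.1% and 2.86%. Psmb8 averaged 0.123% of Psmb5 with TWEAK and 0.00710% without, and Psmb9 averaged 0.0132% of Psmb6 with TWEAK and 0.00334% without. These last pairs have libraries at 0 and were not tested.

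All immune catalytic transcripts together made up 6.76%, 7.68% and 6.79% of the summed catalytic FPKM with TWEAK and 2.05%, 2.15% and 1.77% without. Nearly all of this was Psmb10, and the means were 7.08% ± 0.523 and 1.99% ± 0.192 (SD, n = 3). The size of this share depends on the gene lengths: the length that fits the deposited Psmb7 values is 2849 bases, whereas its longest coding transcript has 1160. With coding lengths the means were 4.79% with TWEAK and 1.32% without. On either length most catalytic transcript remained constitutive.

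**Figure D3:**
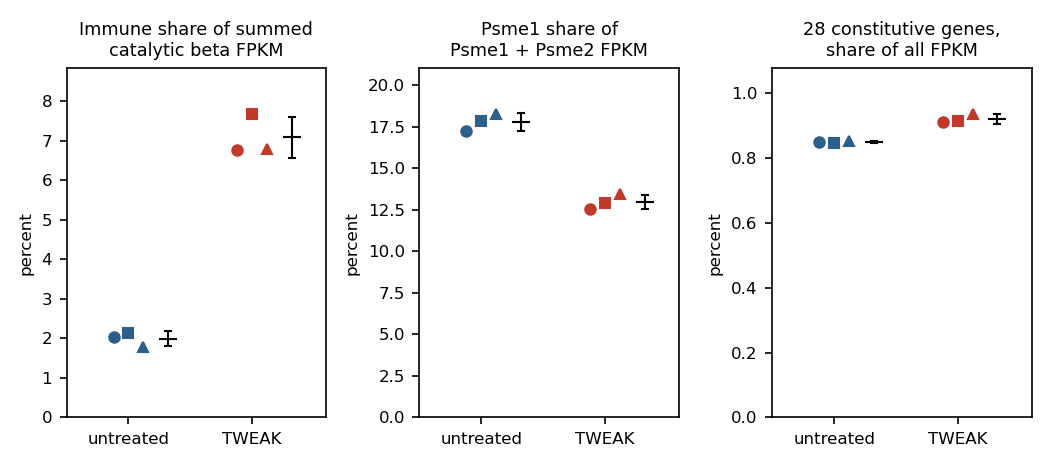
Share of immune forms in summed catalytic beta FPKM, of Psme1 in Psme1 plus Psme2 FPKM, and of the 28 constitutive core, ATPase and lid genes in all FPKM, in percent per library, with mean and SD bars (trials 1, 2 and 3 as circle, square and triangle). The immune share averages 7.08% with TWEAK against 1.99%, and the 28 constitutive genes take 0.911% to 0.937% against 0.846% to 0.853%.

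The 28 constitutive core, ATPase and lid genes moved little but mostly upward. Of these, 2 rose (Psma7 and Psma4) and 0 fell, beside 8.98% and 6.1% of all tested genes. Their median log2 fold change was 0.16, against 0.01 over all tested genes, and folds ran from 0.926 (Psmc3) to 1.25 (Psma7). The log2 fold change was above 0 in 27 of 28 genes, against 52.3% of all genes, and 25 of 28 were higher in all 3 trials, against 31%. In 18 of 28 every TWEAK library was above every untreated one, against 20%. As subunits of 1 complex measured in the same libraries, these genes are not independent of each other. The 28 genes summed to 0.911%, 0.913% and 0.937% of all FPKM with TWEAK and 0.849%, 0.846% and 0.853% without.

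The number of calls among these 28 moved with the settings. At an unadjusted p under 0.05 limma called 15 of the 28 higher and 0 lower, beside 17% and 13.3% of all genes. The authors' deposited table called 11 higher and 0 lower at an adjusted p under 0.05, beside 12.7% of tested genes higher and 1317 of them lower. The limma count was 7 with the trial number as a block (15.4% of all genes higher), 6 after rescaling each library to a fixed FPKM total (TPM, 8.42% of all genes higher), and 0 to 4 when a library was left out. It was 4 without TWEAK replicate 1, where 9.92% of all genes rose. It was 0 without TWEAK replicate 2 (3.92% of all genes) and without untreated replicates 1, 2 and 3 (5.01%, 5.52% and 5.80%). TWEAK replicate 3 was the highest TWEAK library in 26 of the 28 genes, against 5318 of the 12770 tested genes, and it also had the largest FPKM sum, 410814 against 376609 to 386763 in the other libraries. Without it, 1 of the 28 rose, beside 7.49% of all genes. Under TPM scaling, which sets these sums equal, the median log2 fold change of the 28 was 0.15.

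The alpha ring, which gates entry into the core, held both genes that passed. Psma7 was at 115, 121 and 131 FPKM with TWEAK and 99.6, 97.2 and 96.1 FPKM without (log2 fold change 0.32 ± 0.07, SE, n = 3; limma adjusted p = 0.0166). The groups did not overlap, but Psma7 passed in only 2 of the 6 fits that left out a library, with a limma adjusted p of up to 0.0657, and not with no minimum on FPKM (0.0517). Psma4 was at 103, 102 and 115 FPKM against 87.5, 88.0 and 93.8 FPKM (log2 fold change 0.25, limma adjusted p = 0.0490). It passed in 0 of those 6 fits, nor with median-ratio scaling (limma adjusted p = 0.0546), and with the trial block its limma adjusted p was 0.0118. The least shift in the ring was that of Psma3, at 49.7, 53.4 and 56.7 FPKM against 46.9, 45.6 and 51.3 FPKM (log2 fold change 0.15, limma adjusted p = 0.215). All 7 alpha genes were higher in all 3 trials, which held for 31% of all tested genes, and their median log2 fold change was 0.25. With the trial block, 5 of the 7 passed, Psma1, Psma5 and Psma6 in addition, beside 15.4% of all genes higher. Of the Psma4 transcript, 12.9% of 75-base windows also occur in other genes, and of Psma5, 39.8%.

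The 4 structural beta subunits, which hold the inner rings without a known peptidase activity, had log2 fold changes from 0.10 to 0.23, and 0 passed. Psmb4 had the highest, at 207, 214 and 240 FPKM against 186, 186 and 190 FPKM (limma adjusted p = 0.0786, and 0.0332 with the trial block). Psmb1 shifted least, at 95.6, 99.1 and 115 FPKM against 93.8, 94.3 and 99.0 FPKM (limma adjusted p = 0.427). Across the 14 genes of the constitutive 20S core, the median log2 fold change was 0.20. All 14 were higher in all 3 trials, against 31% of all tested genes.

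The 6 base ATPases had a median log2 fold change of 0.09, and 0 passed. Psmc2 had the highest, at 69.0, 68.0 and 75.8 FPKM with TWEAK and 62.1, 59.7 and 59.6 FPKM without (limma adjusted p = 0.0522, and 0.0213 with the trial block). Psmc3, the most abundant member in FPKM, went the other way: it was at 352, 334 and 381 FPKM against 397, 395 and 360 FPKM (log2 fold change -0.11, limma adjusted p = 0.412). Its groups overlapped, and in trial 3 it was higher with TWEAK. The base non-ATPase genes Psmd1, Psmd2 and Psmd4, which anchor the base and bind ubiquitin, did not pass, with log2 fold changes of 0.16, 0.08 and 0.14. Psmd1 was at 135, 136 and 147 FPKM against 119, 127 and 127 FPKM, and Psmd2 at 211, 212 and 211 FPKM against 195, 206 and 199 FPKM.

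None of the 8 lid genes passed in limma, and the median log2 fold change was 0.15. At an unadjusted p under 0.05, 3 were higher and 0 lower, beside 17% and 13.3% of all genes. The authors' deposited table called Psmd7 and Psmd12 higher, beside 12.7% of tested genes higher. The highest was Psmd3, at 72.7, 74.7 and 79.2 FPKM against 67.2, 69.3 and 61.7 FPKM (limma adjusted p = 0.102). Among the alternatives run it passed only with the trial block joined to TPM scaling (limma adjusted p = 0.0458) or to voom on recovered reads (0.0345). Psmd8 had a log2 fold change of 0.00, at 119, 118 and 123 FPKM against 122, 126 and 111 FPKM, with overlapping groups. Psmd14, the deubiquitinase of the lid, was at 92.0, 98.3 and 104 FPKM against 85.6, 84.2 and 92.2 FPKM (limma adjusted p = 0.162).

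The largest rise outside the immune genes and Psme2b was in Psmd10 (gankyrin), a chaperone that helps to assemble the base and is not part of the finished particle. It was at 60.4, 65.8 and 67.3 FPKM with TWEAK and 41.6, 42.9 and 45.3 FPKM without, a 1.49-fold rise with a log2 fold change of 0.56 ± 0.07 (SE, n = 3; limma adjusted p = 0.00113). It passed in all 6 fits that left out a library. The other base chaperones did not pass: Psmd5 was at 13.1, 13.8 and 14.2 FPKM against 12.6, 11.6 and 12.9 FPKM, and Psmd9 at 14.6, 15.4 and 17.4 FPKM against 15.6, 14.5 and 14.8 FPKM.

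Psme4 (PA200), an activator that caps the core in the nucleus, was the only tested member lower in all 3 trials, which held for 27.5% of all tested genes. It was at 33.1, 30.7 and 28.3 FPKM with TWEAK and 36.4, 31.7 and 35.1 FPKM without, and the difference did not pass (log2 fold change -0.16, limma adjusted p = 0.212). Psmf1, an inhibitor of the core, was at 6.84, 7.15 and 6.62 FPKM against 7.23, 7.29 and 6.31 FPKM (limma adjusted p = 0.937). Of the genes that match by name alone, Psmc3ip, a meiotic recombination factor, was at 4.53, 6.59 and 5.93 FPKM against 3.82, 4.48 and 4.05 FPKM (limma adjusted p = 0.0617, and 0.00283 with the trial block). Psme3ip1, a partner of Psme3, was at 25.8, 25.7 and 27.2 FPKM against 23.8, 22.9 and 24.5 FPKM (limma adjusted p = 0.171). Psmb11 had 1, 1 and 2 reads with TWEAK and 1, 1 and 0 without, and Psma8 was listed at 0 in all 6 libraries.

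The levels themselves spread widely within 1 complex. In untreated cells the 28 constitutive genes ranged from 46.9 FPKM (Psmd11) to 384 FPKM (Psmc3) in the mean, with a median of 96.6 FPKM. Psme2 at 58.0 FPKM lay within this range, whereas Psme1 at 12.6 FPKM and Psmb10 at 7.71 FPKM lay below it. With TWEAK, Psme2 reached 119 FPKM and Psmb10 reached 31.8 FPKM, which was still below the lowest constitutive library, at 44.6 FPKM.

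**Figure D4:**
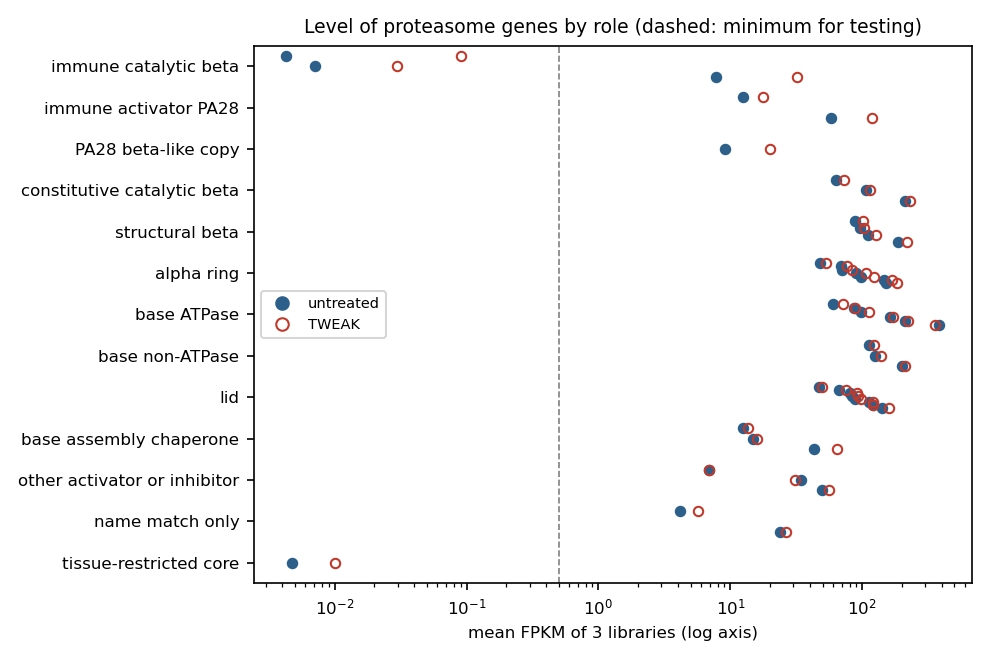
Mean FPKM of the proteasome genes by role on a log axis, untreated (filled) and TWEAK (open), with the minimum of 0.5 FPKM for testing as a dashed line; Psma8, at 0, is not drawn. The constitutive genes lie between 46.9 and 384 FPKM in untreated cells, and Psmb8, Psmb9 and Psmb11 lie left of the line in both groups.

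Genes that build the core were partly raised. Of 5 factors for 20S and immunoproteasome assembly, 3 rose and 0 fell, beside 8.98% and 6.1% of all tested genes. Psmg4 was at 22.6, 25.1 and 31.5 FPKM with TWEAK and 17.5, 18.4 and 17.2 FPKM without (log2 fold change 0.54, limma adjusted p = 0.0114). Pomp, which matures the beta rings and favours immune assembly, was at 38.9, 39.9 and 42.5 FPKM against 34.2, 34.5 and 34.3 FPKM (log2 fold change 0.23, limma adjusted p = 0.0383). Psmg3 was at 7.90, 8.24 and 9.09 FPKM against 6.999, 6.93 and 6.66 FPKM (log2 fold change 0.26, limma adjusted p = 0.0465). Pomp and Psmg3 each passed in 1 of the 6 fits that left out a library. With no minimum on FPKM the limma adjusted p was 0.0689 for Psmg4, 0.0580 for Pomp and 0.0946 for Psmg3. Psmg3 also did not pass at a minimum of 0.1 FPKM or with TPM or median-ratio scaling (limma adjusted p = 0.0605, 0.0548 and 0.0524). Of 8 other 26S subunits and bound factors, such as Adrm1 and Usp14, 0 rose and 0 fell in limma, with 0 at an unadjusted p under 0.05. Of 14 genes for ubiquitin, its activating enzymes and shuttles, 0 rose and 0 fell in limma, with 1 higher at an unadjusted p under 0.05.

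Among 4 regulators of the constitutive genes, 1 rose and 0 fell, beside 8.98% and 6.1% of all tested genes. Nfe2l1, the transcription factor that restores proteasome genes when degradation is impaired, was at 290, 300 and 279 FPKM with TWEAK and 221, 223 and 200 FPKM without (1.35-fold, limma adjusted p = 0.00693). Its relative Nfe2l2, the processing protease Ddi2 and the deglycosylase Ngly1 did not pass. TGACNNNGC, the core of the antioxidant element bound by such factors, was in 6 of 44 member promoter windows (13.6%) and in 12.4% of all windows. The 6 were those of Psmb5, Psmb6, Psmc6, Psmd9, Psmd12 and Psme4. CCAAT was in 16 of 44 member windows (36.4%) and in 37.4% of all windows. Both member shares were near those of all windows.

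Regulators of the immune genes mostly rose: of 11 tested, 9 rose and 0 fell, beside 8.98% and 6.1% of all tested genes. Their log2 fold changes ran from 0.16 to 1.77. The list includes NF-kB genes and was chosen with earlier results of these data known. Nfkb2, the precursor of p52 in the alternative NF-kB pathway, was at 74.9, 87.6 and 69.8 FPKM with TWEAK and 22.9, 23.1 and 20.01 FPKM without (3.52-fold, limma adjusted p = 1.44e-05). Relb, which pairs with p52, was at 11.4, 12.2 and 11.4 FPKM against 6.08, 5.83 and 5.65 FPKM (1.99-fold, limma adjusted p = 8.77e-05). Irf1, the interferon regulatory factor that drives immune subunit genes, was at 29.1, 35.7 and 31.0 FPKM against 14.8, 14.8 and 13.6 FPKM (2.22-fold, limma adjusted p = 8.75e-05). The interferon-gamma receptor gene Ifngr1 was at 37.3, 45.0 and 48.8 FPKM against 16.9, 17.8 and 18.9 FPKM (2.44-fold, limma adjusted p = 0.000100). Nlrc5, the transactivator of MHC class I and immune subunit genes, was below the minimum, at 0.252, 0.277 and 0.164 FPKM against 0.128, 0.217 and 0.159 FPKM, with overlapping groups.

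**Figure D5:**
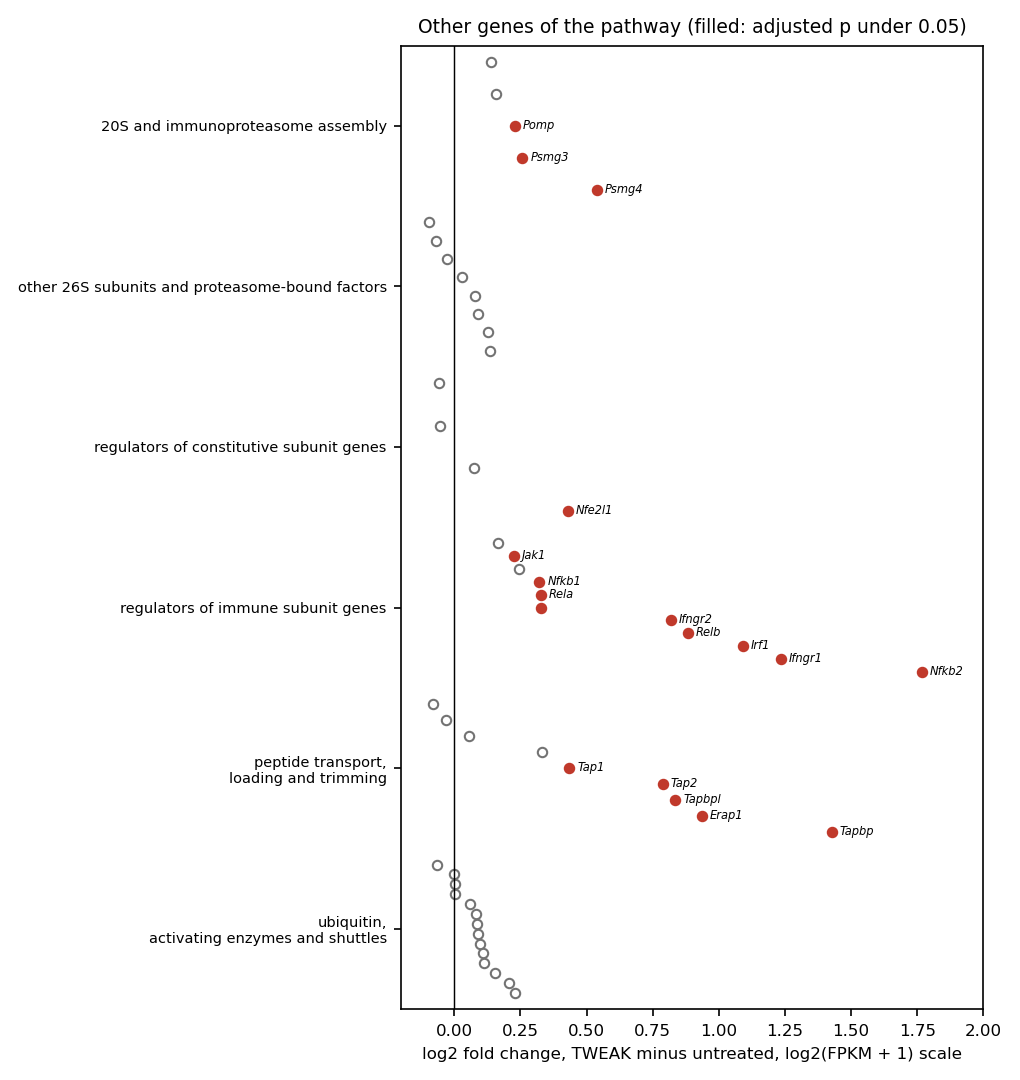
Log2 fold change (TWEAK minus untreated, log2(FPKM + 1) scale) of tested genes that assemble, regulate, feed or use the proteasome, in 6 lists, with filled points for adjusted p under 0.05 and most of them named. Regulators of the immune genes and peptide-loading genes reach 1.77 and 1.43, while the ubiquitin and bound-factor lists stay between -0.10 and 0.23 with no filled point.

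Genes that carry proteasome products to MHC class I also rose in part. Of 9 genes for peptide transport, loading and trimming, 5 rose and 0 fell, beside 8.98% and 6.1% of all tested genes. Tapbp (tapasin), which bridges the transporter and MHC class I, was at 77.4, 84.3 and 84.6 FPKM with TWEAK and 28.7, 31.3 and 29.7 FPKM without (2.75-fold, limma adjusted p = 1.05e-05). Erap1, which trims peptides in the endoplasmic reticulum, was at 5.37, 6.30 and 6.04 FPKM against 2.19, 2.59 and 3.09 FPKM (2.25-fold, limma adjusted p = 0.000665). The tapasin-related editor Tapbpl rose 1.92-fold (limma adjusted p = 0.00129), beside Tap1 and Tap2 as given above. The general chaperones Calr, Canx and Pdia3 did not pass, with folds of 0.983, 1.04 and 0.948. B2m, also on this list, did not pass in the main limma fit, whereas the authors' deposited table called it higher (log2 fold change 0.33, DESeq2 adjusted p = 0.00684). With the trial block 6 of the 9 rose, and with TPM scaling 6, beside 15.4% and 8.42% of all genes.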

How the data were processed

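RNA from 6 C2C12 libraries, 3 treated with TWEAK and 3 untreated, was sequenced. Reads were processed by the authors with Trim Galore 0.5.0, then STAR 2.6.0c and HTSeq 0.6.1p2, and compared with DESeq2 1.22.2 on build GRCm39, per the submitters' processing notes. Strand and annotation release: not given in the sources used here. Per the file headers, the deposited table holds FPKM per library and the authors' log2 fold change, standard error, test score, p-value and adjusted p-value. It also holds a deposited mean signal of normalized counts, which is above 0 for 2337 of the 23290 genes at 0 in all 6 libraries, so that fit held libraries not analysed here. There were 0 per-sample columns without a sample.

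All 126386 values above 0 were whole reads over a gene length and library factor, within a relative tolerance of 1e-09. Where several lengths were possible, the longest GENCODE M21 transcript was taken, which is an assumption. Intervals of low counts are 95% exact binomial and cover counting error only.

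The model was limma-trend (limma 3.58.1, R 4.3.3) on log2(FPKM + 1) with group as the only term, two-sided, on genes with a mean of at least 0.5 FPKM, with Benjamini-Hochberg adjustment at 0.05 over 12770 genes. Ratios between genes used an exact permutation test. Python 3.11.15 with numpy 2.4.6, pandas 2.3.3, scipy 1.17.1 and matplotlib 3.10.9 did the rest. The members, roles, lists and the rule for named genes were chosen with earlier results of these data known. The rule takes the immune members, their counterparts, every member that passed, the highest and lowest of each role, up to 4 genes that passed per related list, and 6 fixed genes. Genes named outside it were chosen after their values were seen. Some listed genes are not reported here by name.

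Across genes, the deviation of a TWEAK library from its group mean correlated with that of the same-numbered untreated library at 0.473, 0.218 and 0.434 for trials 1, 2 and 3. Between different trials the values were -0.406 to -0.0200. Deviations cancel out within a group, so the negative values follow in part from the positive ones and are not separate support. The same-number values, not the labels, point to a pairing by trial number. The reported tests are unpaired, and the fit with the trial as a block is given beside them where it changes a call or a count. Alternatives were a trial block, other pseudocounts, minimums and scalings, limma-voom on recovered reads, and each library left out.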

Additional observations from a re-analysis of the deposited data

How the results depend on the processing

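Alternatives that combine a scaling or voom with the trial block, and the coding lengths, were chosen after seeing the data. Under every alternative 0 members fell, and the 3 tested immune members passed, except Psme1 with no minimum on FPKM. The count of members that rose, 7, was 13 with the replicate block, 11 with TPM scaling, 4 with no minimum, 18 with TPM scaling and the block, 13 with median-ratio scaling and the block, 18 with voom and the block, and 5 to 10 when a library was left out. Over all genes the share that rose, 8.98%, moved as well: it was 15.4%, 8.42%, 1.90%, 13.7%, 14.4% and 16.6% under those 6 settings in turn, and 3.92% to 9.92% when a library was left out. The share was 6.85% at a minimum of 0.1 FPKM and 8.32% with median-ratio scaling. Among the 28 constitutive genes the count of 2 became 7 with the block, 1 at a minimum of 0.1 FPKM, 0 with no minimum, 6 with TPM scaling, 1 with median-ratio scaling, 12 with TPM scaling and the block, 7 with median-ratio scaling and the block, and 12 with voom and the block. It was 0 to 4 when a library was left out: 4 without TWEAK replicate 1, 1 without TWEAK replicate 3 and 0 without any other library. The cause of these shifts was not tested. Beyond the 6 members it added, the replicate block changed no member's call, and it added 1 gene each to the immune regulators, peptide loading and ubiquitin lists. Among all values of single genes and alternatives, 823 kept their direction and side of the threshold, 43 gained a call, 36 lost one and 10 turned sign. Those that turned were near 0: Psmd8 was -0.0127 under TPM and -0.0106 under median-ratio scaling, the same with the block, and -0.0451 to 0.0411 with a library left out, where Psmc6 was -0.00085 to 0.0679 and Psmf1 -0.0701 to 0.0199. The log2 ratio of Psmb10 to Psmb7 differed by 1.81 to 2.01 across its alternatives, and by 1.94 within trials with the block (exact sign-flip permutation p = 0.25, the smallest that 3 pairs allow). Depth limits what can be said of Psmb8, Psmb9 and Psmb11, and overlap with other genes adds to this for Psmb8 and Psmb9. Other members, Psmb10, Psme1 and Psmb7 among them, also overlap listed genes.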
